A study of Mus musculus with 6 samples.

Results

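The genes described here encode myeloid C-type lectins, Fc receptors and paired immune receptors. They were picked by a rule on the gene name, chosen with earlier results of these data known. Protein-coding rows of the deposited table were taken whose symbol begins with Siglec, Cd300, Lilr, Pilr, Pira, Pirb or Fcer1g. Also taken were protein-coding rows whose symbol begins with Clec, Ms4a or Fcgr and a digit, or with Trem and a digit or the letter l. That gave 95 of the 57010 genes in the table, and the 53 with at least 10 counts in 3 or more libraries are reported. The data were 6 RNA-seq libraries of primary neonatal mouse cardiomyocytes (NMCMs), isolated from the hearts of C57BL/6 pups in their first days of life and kept under hypoxia (HO). Of these, 3 were given vehicle (HO + Vehicle, libraries V1 to V3) and 3 were given β-sitosterol, a plant sterol (HO + β-SITO, libraries T4 to T6). All 6 libraries were hypoxic, and no normoxic library was analysed here. The dose and the duration of treatment of these libraries are not given in the sources used here, nor is it said whether the libraries of a group came from separate cultures, so the p-values measure the spread between these libraries. Library names of the HO + β-SITO group carry a suffix that the HO + Vehicle names lack, and any separate preparation of these libraries cannot be told apart from β-SITO itself.

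Most of these receptors sit on macrophages, dendritic cells and neutrophils, and the heart holds resident macrophages from before birth. Fcγ receptors bind the constant part of IgG, C-type lectins bind sugars, lipids or debris of dead cells, Siglecs bind sialic acid, and TREM and CD300 proteins bind lipids and apoptotic cells. Many come in pairs that share ligands. An activating receptor has a short tail and signals through the adaptors FcRγ (Fcer1g) or DAP12 (Tyrobp), whose ITAM motifs recruit the kinase SYK. Its inhibitory partner carries an ITIM motif in its own tail, which recruits phosphatases such as SHP-1 (Ptpn6), SHP-2 (Ptpn11) and SHIP-1 (Inpp5d). The name rule also took genes that are not myeloid receptors: Clec3b encodes tetranectin, a secreted plasma protein, Clec11a a secreted growth factor, Clec14a an endothelial membrane protein and Clec16a an endosomal protein. The last name group, MS4A, holds tetraspan membrane proteins and not lectins or Fc receptors.

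Promoter sequence was examined because genes of neighbouring receptors went opposite ways. RefSeq windows (GRCm38.p6, from 250 bases before to 50 bases after the start site) matched 43 of the 53 genes by symbol. Both strands were searched for GAGGAA, the core of the site of the myeloid factor PU.1. They were also searched for GAAA and GAAA with 2 bases of any kind between them, the core of the interferon-stimulated response element (ISRE), and for GGGA and CC with 4 bases between them, a short form of the NF-κB site. The stretches below are shown because Fcgr1 and Fcgr4 were lower in HO + β-SITO, Fcgr3 and Trem2 were higher, and Clec2d and the PILR genes were lower and hold the ISRE letters. Capitals mark a PU.1 core (TTCCTC is the same site on the other strand) or an ISRE core, the matches in these stretches do not overlap, and each sequence is read on the strand of its gene.
Fcgr1 (chr3:96293970-96294089, minus strand): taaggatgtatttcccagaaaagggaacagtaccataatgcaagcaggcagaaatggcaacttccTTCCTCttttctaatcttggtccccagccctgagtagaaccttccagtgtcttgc
Fcgr4 (chr1:171018806-171018925, plus strand): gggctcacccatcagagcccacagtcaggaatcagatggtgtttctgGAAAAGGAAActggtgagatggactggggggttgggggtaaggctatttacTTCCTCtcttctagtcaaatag
Fcgr3 (chr1:171059395-171059514, minus strand): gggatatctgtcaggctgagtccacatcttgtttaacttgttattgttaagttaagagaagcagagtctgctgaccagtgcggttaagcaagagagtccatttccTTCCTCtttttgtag
Trem2 (chr17:48346281-48346400, plus strand): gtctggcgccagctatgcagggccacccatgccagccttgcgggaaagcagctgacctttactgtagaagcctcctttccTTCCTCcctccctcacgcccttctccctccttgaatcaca
Clec2d (chr6:129180395-129180464, plus strand): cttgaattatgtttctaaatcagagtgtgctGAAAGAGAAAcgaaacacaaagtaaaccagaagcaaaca
Pilra (chr5:137836429-137836498, minus strand): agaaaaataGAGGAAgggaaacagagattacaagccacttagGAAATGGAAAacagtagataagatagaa
Pilrb1 (chr5:137858250-137858299, minus strand): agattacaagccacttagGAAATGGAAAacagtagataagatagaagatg
Pilrb2 (chr5:137871959-137872008, minus strand): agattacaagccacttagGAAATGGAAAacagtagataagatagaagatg

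A PU.1 core stood in the windows of Fcgr1, Fcgr4, Fcgr3 and Trem2, which are among the genes shown. The windows of Fcgr2b and Fcer1g held NF-κB letters but no PU.1 core. Over all matched receptor genes it was found for 7 of 15 that were lower, 10 of 12 that were higher and 13 of 16 that were neither, against 31.3% of 27025 genes with a window. The ISRE letters were found for 5 of the 15 lower genes (Fcgr4, Clec2d, Pilra, Pilrb1 and Pilrb2), 1 of the 12 higher genes (Cd300c2) and 1 of the 16 others (Clec4d), against 3.99% of all genes. The 3 PILR windows hold the same stretch and are not separate examples. Bases corresponding to the Pilra PU.1 core lie beyond the start of the Pilrb1 and Pilrb2 windows and were not searched. The PU.1 count of the lower genes therefore depends on the window. The NF-κB letters were found for 6 of 15, 5 of 12 and 4 of 16, against 22.9% of all genes. These are matches of letters, not measured binding.

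Receptor genes moved in both directions. Differentially expressed genes (DEGs) were those that passed edgeR's quasi-likelihood test (Benjamini-Hochberg adjusted p below 0.05 over all 14799 genes tested) and differed by over 2-fold. By this measure 16 receptor genes were lower and 17 were higher in HO + β-SITO among the 52 tested. That is 33 of 52, or 63.5%, where 22.8% of all tested genes were DEGs (10.1% lower and 12.8% higher). Their median log2 fold change was -0.23 beside -0.01 for all tested genes, and the median size regardless of direction was 1.28 beside 0.44. For 43 of the 52 no HO + Vehicle library overlapped an HO + β-SITO library, as for 70.5% of all tested genes. Another 11 passed the adjusted p without reaching 2-fold (7 lower, 4 higher), so that 44 of 52 passed the adjusted p alone, where 66.8% of all tested genes did, and 8 did not pass. Pira2, with 1 to 7 counts in HO + Vehicle and 10 to 15 in HO + β-SITO, fell below the expression filter and was not tested. Together the 53 genes took 0.141% to 0.152% of all counts in HO + Vehicle and 0.0935% to 0.109% in HO + β-SITO. In bulk libraries, fewer cells of a type and less RNA per cell cannot be told apart. Over the same comparison 11 of 15 macrophage markers rose and 2 fell, and their part in the receptor changes was not tested.

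**Figure D1:**
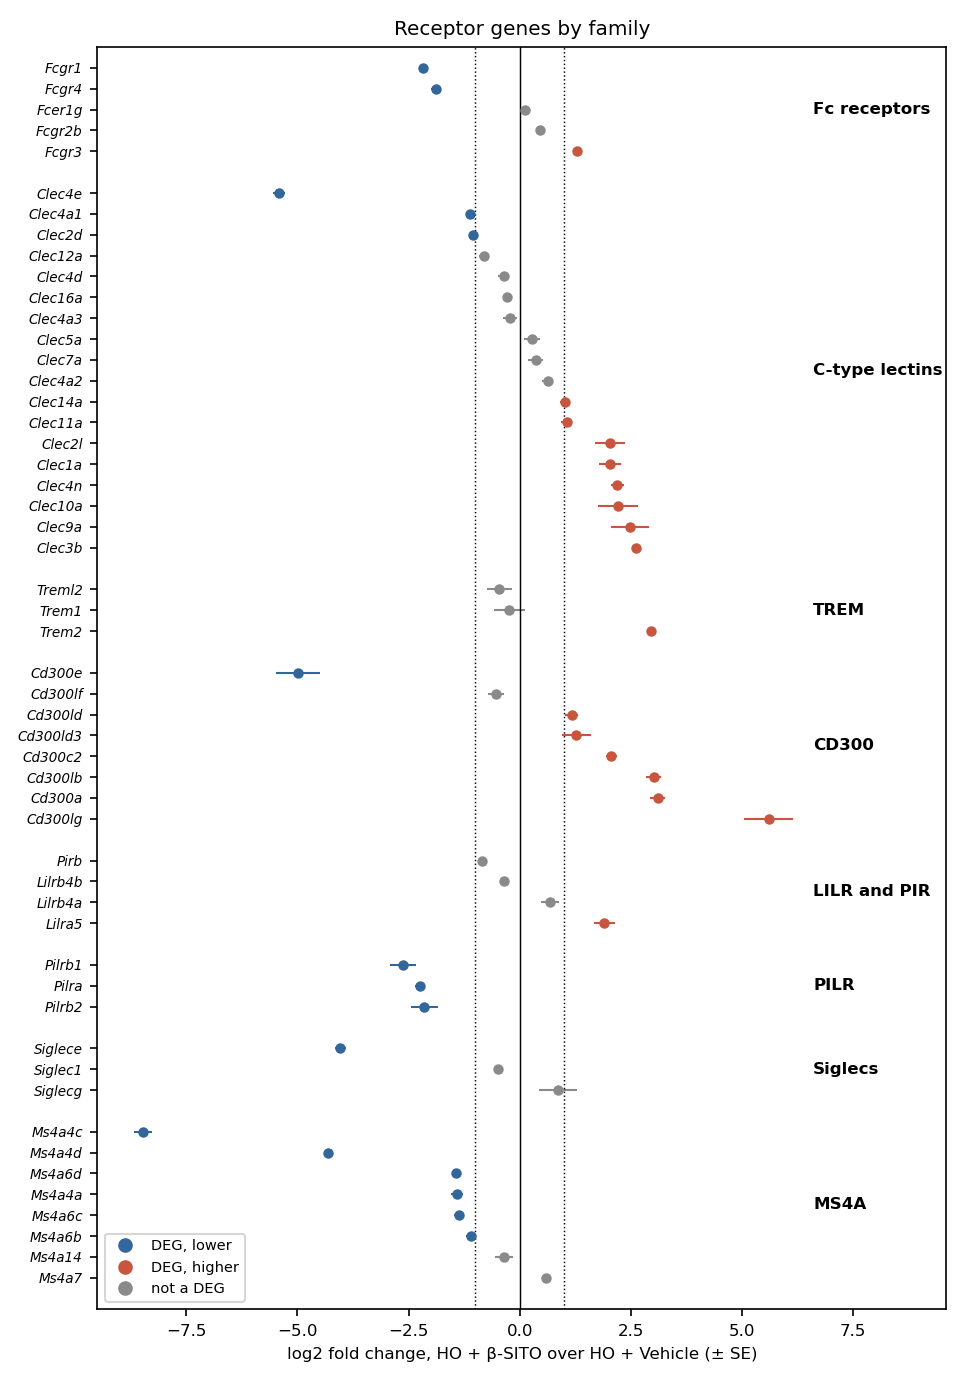
Log2 fold change of the 52 tested receptor genes, HO + β-SITO over HO + Vehicle, with its standard error, grouped by family; dotted lines mark 2-fold. MS4A and PILR genes lie mostly to the left and CD300 genes mostly to the right, while the Fc receptors and lectins spread over both sides.

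Fc receptor genes split by subtype. Fcgr1, which encodes the high-affinity IgG receptor FcγRI, had 1770, 1904 and 1881 counts in V1 to V3 and 558, 422 and 468 in T4 to T6. Its mean was 116 ± 3.82 CPM (counts scaled to TMM-normalised library size; SD, n = 3) in HO + Vehicle and 25.6 ± 2.70 CPM in HO + β-SITO. The log2 fold change was -2.18 ± 0.08 (SE; adjusted p = 8.38e-13). Fcgr4, the receptor for IgG2a and IgG2b complexes, had 405, 450 and 407 counts against 155, 124 and 121. It fell by 1.89 ± 0.10 on the log2 scale (adjusted p = 2.21e-10). In both genes every HO + β-SITO library lay below every HO + Vehicle library.

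The low-affinity receptors went the other way. Fcgr3, an activating receptor that pairs with the FcRγ chain as FcγRI and FcγRIV do, had 727, 771 and 680 counts in V1 to V3 and 2402, 1912 and 1951 in T4 to T6. Its log2 fold change was 1.29 ± 0.08 (adjusted p = 1.07e-09). Fcgr2b, the only inhibitory Fcγ receptor of the mouse, had 816, 827 and 857 counts against 1661, 1163 and 1239. It passed the test without reaching 2-fold (log2 fold change 0.46 ± 0.09, adjusted p = 4.31e-04), with T4 well above T5 and T6. Fcer1g, the shared signalling chain, had 930, 1040 and 960 counts against 1458, 1146 and 1148, which overlapped once scaled to library size (61.1 ± 3.53 against 66.4 ± 7.77 CPM, SD, n = 3; log2 fold change 0.12 ± 0.08, adjusted p = 0.209).

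Because the receptors moved apart, their proportions changed. Per kilobase of exon (GENCODE vM21 lengths), the ratio of Fcgr1 to Fcgr2b was 4.85, 5.15 and 4.91 in V1 to V3 and 0.751, 0.812 and 0.845 in T4 to T6. For Fcgr4 to Fcgr2b it was 2.29, 2.51 and 2.19 against 0.430, 0.492 and 0.450. The ratio of Fcgr3 to Fcgr2b rose from 2.97, 3.11 and 2.65 to 4.82, 5.48 and 5.25. None of these ratios overlapped between the groups (exact permutation test of the log2 ratio, two-sided, p = 0.1 for each, the smallest that 3 libraries against 3 allow). Fcgr2b, Fcgr4 and Fcgr3 are neighbours within 106 kb of chromosome 1 (GRCm39), while Fcgr1 lies on chromosome 3 from 96190225 to 96201285.

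**Figure D2:**
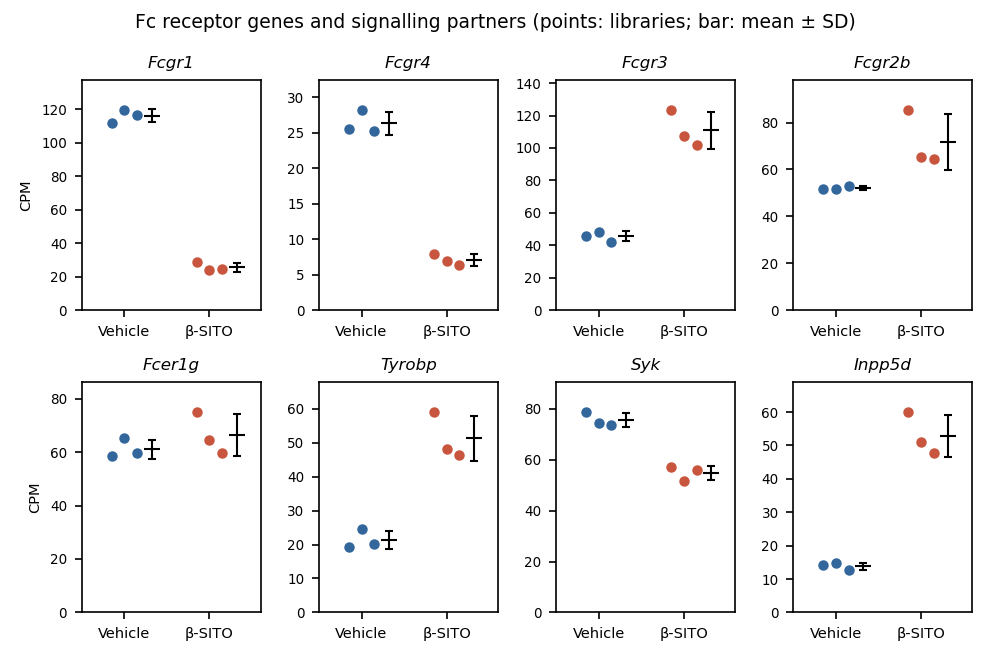
CPM of 5 Fc receptor genes and of Tyrobp, Syk and Inpp5d in each library, with mean ± SD (n = 3). Fcgr1 and Fcgr4 drop, Fcgr3, Tyrobp and Inpp5d rise with no overlap, and Fcer1g overlaps between the groups.

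Among the 18 C-type lectin genes, 3 were DEGs lower and 8 were DEGs higher. That is 16.7% and 44.4%, where 10.1% and 12.8% of all tested genes were. The lectins of the Dectin-2 cluster on chromosome 6 diverged most. Clec4e encodes Mincle, which senses mycobacterial glycolipid and a nuclear protein released by dead cells. It had 1146, 1174 and 1319 counts in V1 to V3 and 46, 30 and 24 in T4 to T6, or 75.9 ± 5.09 CPM against 1.77 ± 0.562 CPM (SD, n = 3; log2 fold change -5.42 ± 0.13, adjusted p = 1.20e-14). Its immediate neighbour Clec4d encodes MCL, the partner that forms dimers with Mincle, and had 331, 400 and 477 counts against 422, 335 and 348. The Clec4d libraries overlapped, and its log2 fold change of -0.37 ± 0.11 passed the test without reaching 2-fold (adjusted p = 0.0106).

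The next gene of the cluster, Clec4n, encodes Dectin-2, a receptor for fungal mannans that also signals through FcRγ. It had 42, 54 and 57 counts in V1 to V3 and 326, 238 and 262 in T4 to T6, a log2 fold change of 2.19 ± 0.15 (adjusted p = 2.72e-09). Clec4n, Clec4d and Clec4e lie side by side between 123206802 and 123266829 of chromosome 6 (GRCm39), with 15.1 kb and 6.52 kb between them. Per kilobase of exon, Clec4e stood at 0.891 to 1.12 times Clec4d in HO + Vehicle and at 0.0222 to 0.0351 times in HO + β-SITO, whereas Clec4n went from 0.135 to 0.152 times to between 0.800 and 0.870 times (exact permutation test of each log2 ratio, two-sided, p = 0.1, the smallest possible). Of the DCIR family genes at the other end of the cluster, Clec4a1 fell (-1.13 ± 0.08, adjusted p = 7.36e-09). Clec4a2, the member with an ITIM, was higher without reaching 2-fold (0.63 ± 0.13), and Clec4a3 did not pass (-0.22 ± 0.16, adjusted p = 0.234).

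Clec7a encodes Dectin-1, the β-glucan receptor. With 73, 104 and 112 counts in V1 to V3 and 175, 129 and 132 in T4 to T6 it did not pass (0.36 ± 0.16, adjusted p = 0.0665), and its libraries overlapped in CPM. Clec12a of the same cluster, an inhibitory receptor for uric acid crystals, was lower by less than 2-fold (-0.81 ± 0.10, adjusted p = 3.29e-06). Clec2d, which encodes a widely expressed ligand of an inhibitory natural killer cell receptor, was the most abundant of the lectin genes, with 2947, 3089 and 2835 counts in V1 to V3 and 1715, 1577 and 1780 in T4 to T6. Its log2 fold change was -1.04 ± 0.06 (adjusted p = 3.88e-10), so it sat at the 2-fold threshold. Clec9a, a receptor for exposed actin filaments known from cross-presenting dendritic cells, had 2, 5 and 2 counts against 20, 23 and 18 (2.48 ± 0.43, adjusted p = 1.23e-04). Clec10a, a galactose lectin of macrophages, had 2, 4 and 2 against 15, 16 and 14 (2.21 ± 0.45, adjusted p = 4.87e-04). Both rises rest on under 25 counts in any library.

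The largest lectin increase by fold was in a gene that is not a receptor. Clec3b had 112, 148 and 137 counts in V1 to V3 and 991, 890 and 971 in T4 to T6, a log2 fold change of 2.61 ± 0.09 (adjusted p = 1.11e-12). Clec1a (2.04 ± 0.24), Clec2l (2.02 ± 0.34), Clec11a (1.05 ± 0.13) and Clec14a (1.03 ± 0.11) rose as well, while Clec16a was lower by less than 2-fold (-0.30 ± 0.08). Clec14a and Clec1a are known from endothelium. Of 7 endothelial markers, 6 rose (Pecam1 by 1.84 ± 0.06, Cdh5 by 1.84 ± 0.08 and Vwf by 4.09 ± 0.14 on the log2 scale) and Flt1 fell by 2.36 ± 0.08, and their part in the rise of these lectins was not tested. Clec5a, a receptor that signals through DAP12, did not pass (0.28 ± 0.18, adjusted p = 0.182).

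**Figure D3:**
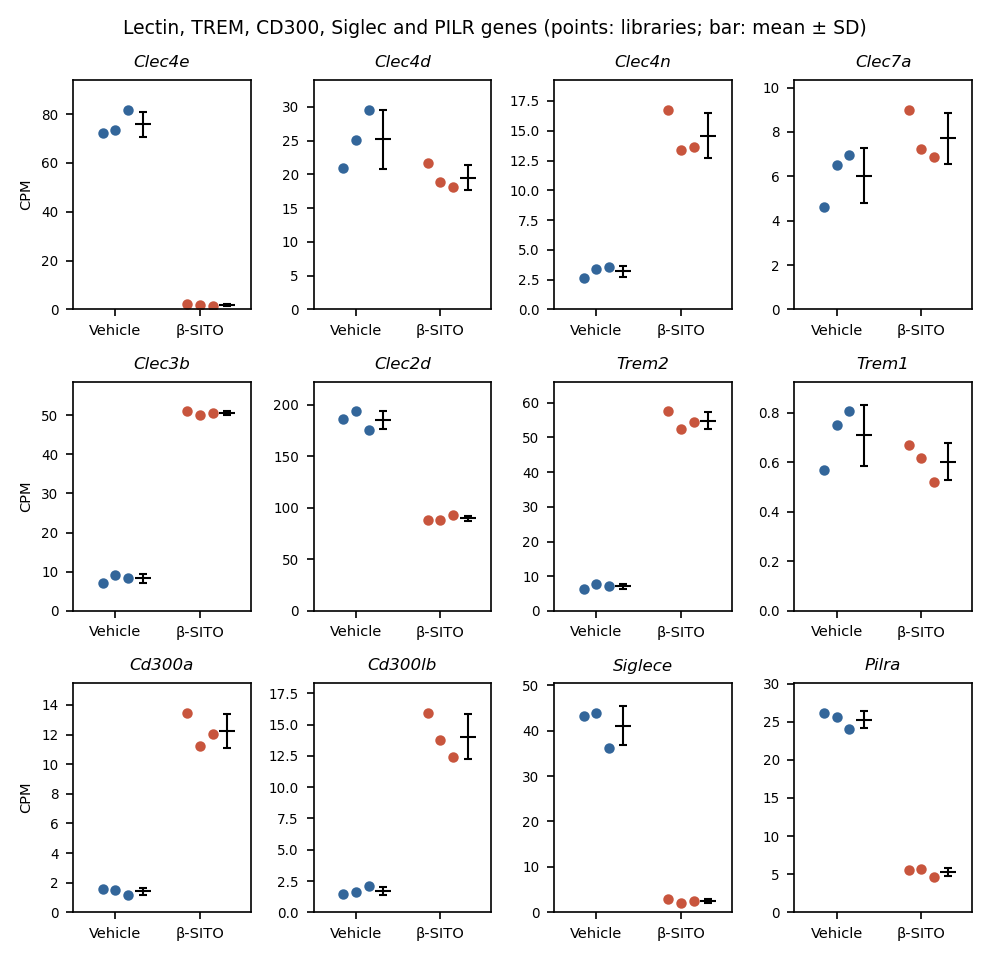
CPM of 12 lectin, TREM, CD300, Siglec and PILR genes in each library, with mean ± SD (n = 3). Clec4e, Clec2d, Siglece and Pilra fall and Clec4n, Clec3b, Trem2, Cd300a and Cd300lb rise with no overlap, whereas Clec4d, Clec7a and Trem1 overlap.

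The TREM genes differed from one another. Trem2, which encodes a lipid and apolipoprotein receptor of tissue macrophages that signals through DAP12, had 99, 125 and 115 counts in V1 to V3 and 1119, 934 and 1046 in T4 to T6. Its mean was 7.07 ± 0.793 CPM against 54.8 ± 2.52 CPM (SD, n = 3; log2 fold change 2.95 ± 0.09, adjusted p = 2.36e-13), with every HO + β-SITO library above every HO + Vehicle library. Trem1, the amplifier of inflammatory responses that uses the same adaptor, had only 9, 12 and 13 counts against 13, 11 and 10. At that depth no difference was detectable (-0.23 ± 0.34, adjusted p = 0.563). Treml2, between them on chromosome 17, did not pass either (-0.46 ± 0.28, adjusted p = 0.162).

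CD300 was the family with the largest share of increases, 6 of 8 genes, with 1 decrease. That is 75% higher and 12.5% lower, where 12.8% and 10.1% of all tested genes were. Cd300a, the ITIM-bearing receptor for phosphatidylserine and phosphatidylethanolamine of dying cells, had 25, 24 and 19 counts in V1 to V3 and 262, 200 and 231 in T4 to T6 (3.10 ± 0.16, adjusted p = 1.47e-10). Cd300lb, an activating DAP12-coupled member, had 23, 26 and 34 counts against 310, 245 and 239 (3.02 ± 0.17, adjusted p = 2.61e-10). Thus an inhibitory and an activating gene of the cluster rose by a similar factor. Cd300c2 (2.06 ± 0.12), Cd300ld (1.17 ± 0.14) and Cd300ld3 (1.27 ± 0.32) rose less. The Cd300ld3 value is uncertain, since 80.9% of its 100-base transcript words also occur in other CD300 genes.

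Exceptions lay at the far end of the same cluster. Cd300e, an activating receptor of monocytes, had 33, 25 and 33 counts in V1 to V3 and 2, 1 and 0 in T4 to T6. Summed counts put HO + Vehicle 35.7-fold higher (95% exact interval 11.8 to 176, counting error only), with an adjusted p of 3.47e-07. The fitted log2 fold change was -4.98, and -5.79 without T4. Cd300lf, an ITIM-bearing phosphatidylserine receptor, was lower without reaching 2-fold (-0.53 ± 0.18, adjusted p = 0.0190). Cd300lg lies apart on chromosome 11, at 101932335 to 101946446 (GRCm39), and encodes nepmucin, an endothelial adhesion molecule. It had 2, 0 and 0 counts against 39, 47 and 47, which is 56.4-fold higher in HO + β-SITO (interval 15.3 to 471, adjusted p = 2.31e-07). Both HO + Vehicle counts came from V1. The fitted log2 fold change was 5.60, and 8.40 without V1, a value that then depends on the prior count because no HO + Vehicle count is left.

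In the paired immunoglobulin-like families, PILR genes fell as a block. Pilra, the ITIM-bearing member, had 414, 408 and 387 counts in V1 to V3 and 108, 101 and 89 in T4 to T6 (-2.26 ± 0.10, adjusted p = 2.81e-11). Its activating partner Pilrb1 had 47, 39 and 37 counts against 6, 7 and 10 (-2.63 ± 0.29, adjusted p = 1.17e-06), and Pilrb2 followed (-2.15 ± 0.31). These 3 genes lie within 49.9 kb of chromosome 5 and share the promoter stretch shown above. Pilra overlaps Zcwpw1 on the opposite strand, a gene with 330 counts over all libraries against 1507 for Pilra, and whether strand was used in counting is not given in the sources used here.

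LILR and PIR genes moved less. Pirb, an inhibitory receptor for MHC class I, had 666, 570 and 657 counts in V1 to V3 and 475, 385 and 386 in T4 to T6, which did not reach 2-fold (-0.84 ± 0.09, adjusted p = 6.69e-07). Lilra5, an activating member, rose (1.90 ± 0.24, adjusted p = 4.25e-06). Lilrb4a, which carries ITIMs, was higher (0.67 ± 0.20) and its neighbour Lilrb4b lower (-0.36 ± 0.09), both under 2-fold. These families hold near-identical copies: 87.8% of the 100-base words in Lilrb4a transcripts and 24.7% of those in Pirb transcripts also occur in transcripts of other genes (GENCODE vM21), so reads of these genes could have been split or dropped.

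Of the sialic acid receptors, Siglece changed most. This gene encodes the main inhibitory Siglec of mouse myeloid cells and had 683, 700 and 583 counts in V1 to V3 and 56, 37 and 48 in T4 to T6. Its mean was 41.1 ± 4.28 CPM against 2.49 ± 0.399 CPM (SD, n = 3; log2 fold change -4.04 ± 0.13, adjusted p = 2.48e-13). Siglec1, the adhesive sialoadhesin of macrophages, was lower by less than 2-fold (946 to 1027 counts against 724 to 951, -0.49 ± 0.08, adjusted p = 3.57e-05). Siglecg, with 6 to 38 counts, did not pass (0.86 ± 0.42, adjusted p = 0.0865). It passed without T5, with library size only and with upper quartile normalization.

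MS4A genes were mostly lower: 6 of 8 fell and none rose by 2-fold. That is 75% lower, where 10.1% of all tested genes were. Ms4a4c had 647, 800 and 802 counts in V1 to V3 and 3, 3 and 1 in T4 to T6. By summed counts HO + Vehicle was 379-fold higher (95% exact interval 183 to 943, counting error only), and the adjusted p was 1.05e-14. Ms4a4d, the gene with the highest mean CPM of all 53, had 4486, 5047 and 5073 counts against 322, 285 and 262. Its level fell from 305 ± 18.5 to 15.4 ± 1.55 CPM (SD, n = 3; -4.31 ± 0.08, adjusted p = 7.86e-16).

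Smaller decreases were found for Ms4a6d, with 1449, 1655 and 1824 counts against 873, 589 and 698 (-1.43 ± 0.10, adjusted p = 5.24e-09), and for Ms4a4a (-1.42 ± 0.13), Ms4a6c (-1.37 ± 0.11) and Ms4a6b (-1.10 ± 0.10). For Ms4a6c, 51.3% of the 100-base words are shared with other transcripts, among them those of a noncoding gene that overlaps it on the opposite strand. Ms4a7, a marker of mature macrophages, was the exception. It had 402 to 478 counts in HO + Vehicle and 711 to 925 in HO + β-SITO, higher without reaching 2-fold (0.60 ± 0.09, adjusted p = 2.43e-05). Ms4a14 did not pass (-0.36 ± 0.20, adjusted p = 0.128).

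Chromosomal neighbours did not all move together. The 8 MS4A genes lie within 304 kb of chromosome 19, with 6 lower and none higher. The 7 clustered CD300 genes lie within 244 kb of chromosome 11, with 5 higher and 1 lower. In the 368 kb from Clec4a1 to Clec4e on chromosome 6, 2 of 6 genes were lower and 1 was higher, and in the 292 kb from Clec2d to Clec7a, 1 of 5 was lower and 2 were higher. These are few genes per cluster, and 10.1% of all tested genes were lower and 12.8% higher. Clec9a and Clec1a, which rose by 2.48 and 2.04 on the log2 scale, lie on opposite strands, with the 3′ ends of their annotations 8 bases apart.

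**Figure D4:**
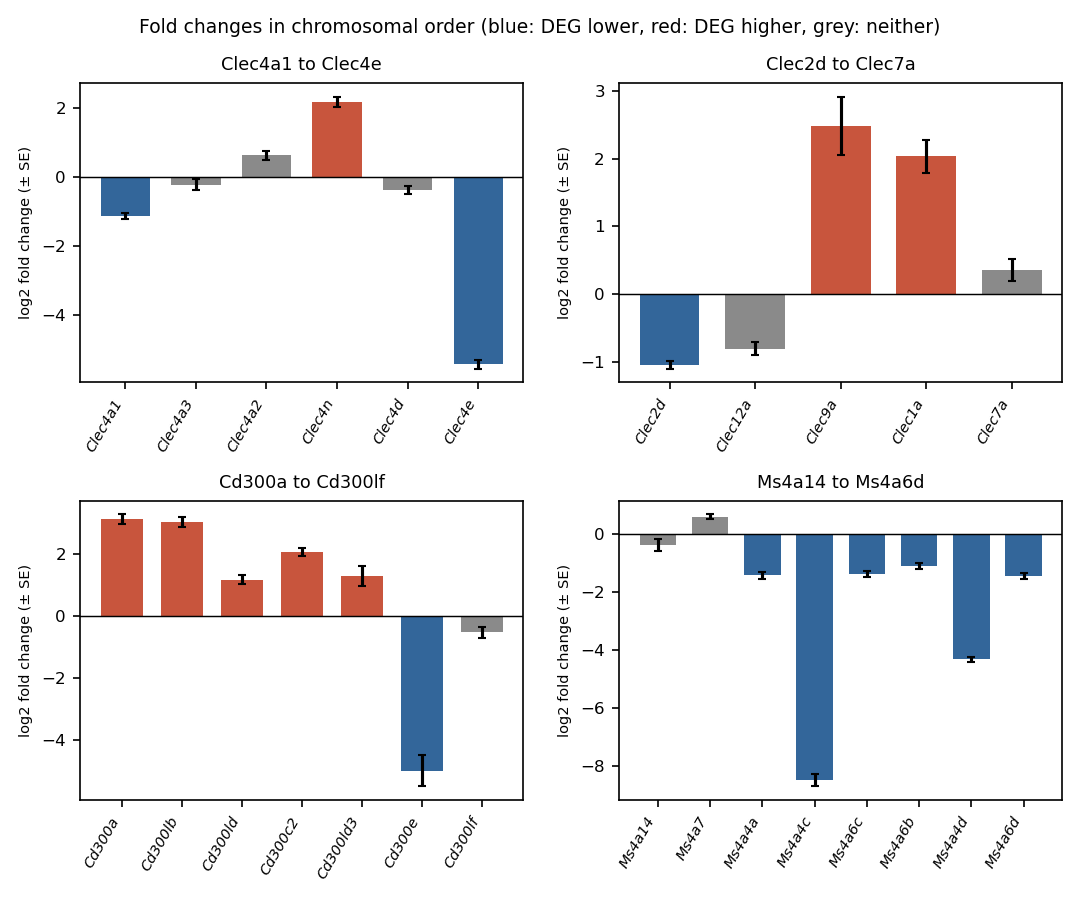
Log2 fold change ± SE of neighbouring receptor genes in chromosomal order, evenly spaced, for both lectin clusters of chromosome 6, the CD300 cluster of chromosome 11 and the MS4A cluster of chromosome 19. Clec4n and Clec4e lie on opposite sides of 0 with Clec4d between them, and Cd300e is the only large decrease of its cluster.

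Grouping by signalling type, with roles assigned from textbook knowledge after the values had been seen, gave no single direction. Of 16 tested genes for activating receptors that use FcRγ or DAP12, 6 were lower (Fcgr1, Fcgr4, Clec4e, Cd300e, Pilrb1, Pilrb2) and 7 were higher (Fcgr3, Clec4n, Trem2, Lilra5, Cd300lb, Cd300ld, Cd300c2), with a median log2 fold change of 0.02. Of 10 genes for ITIM-bearing receptors, 2 were lower (Siglece, Pilra) and 1 was higher (Cd300a), with a median of -0.04. Of the activating group 37.5% were lower and 43.8% higher, and of the ITIM-bearing group 20% and 10%. Among all tested genes 10.1% were lower and 12.8% higher. The median size of change regardless of direction was 2.10 in the activating and 0.82 in the inhibitory group, beside 0.44 for all tested genes.

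The genes that carry or oppose the signal of these receptors were taken from a list of 26, of which 25 were tested. Among them 5 fell, 4 rose, 10 passed without reaching 2-fold (7 lower, 3 higher) and 6 did not pass, with a median log2 fold change of -0.11. That is 20% lower and 16% higher, where 10.1% and 12.8% of all tested genes were, and 19 of 25 passed the adjusted p whatever the fold, where 66.8% of all tested genes did. Tyrobp, the adaptor of TREM2, rose from 19.4, 24.5 and 20.1 CPM to 59.0, 48.3 and 46.5 CPM (1.27 ± 0.10, adjusted p = 3.58e-08), unlike Fcer1g. Inpp5d, the phosphatase that acts at Fcgr2b, had the largest increase of the list (1.93 ± 0.10, adjusted p = 8.87e-11). Of the ITIM-bound phosphatases SHP-1 and SHP-2, Ptpn6 (SHP-1) did not pass (-0.06 ± 0.10, adjusted p = 0.590) and Ptpn11 (SHP-2) was lower by less than 2-fold (-0.22 ± 0.06, adjusted p = 0.00775).

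Kinases and the module below SYK moved unevenly. Syk was lower without reaching 2-fold (-0.46 ± 0.06), the Src-family kinase genes Src (-1.18 ± 0.06) and Fgr (-1.09 ± 0.30) fell, and Lyn did not pass (-0.09 ± 0.08, adjusted p = 0.324). Within the CARD9, BCL10 and MALT1 complex that links lectins to NF-κB, Card9 rose (1.40 ± 0.20) from a low level. Bcl10 was lower by less than 2-fold (-0.58 ± 0.06), and Malt1 fell from 51.8 ± 1.14 to 6.80 ± 0.258 CPM (SD, n = 3; -2.93 ± 0.08, adjusted p = 5.90e-14). Nfatc1 (1.03 ± 0.08) also rose and the adaptor gene Dok1 (-1.34 ± 0.09) fell.

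Receptors of the same kinds that the name rule leaves out were listed too, 39 genes with 27 tested. Of these, 11 fell (40.7%) and 7 rose (25.9%), where 10.1% and 12.8% of all tested genes did, with a median log2 fold change of -0.45. Mrc1, the macrophage mannose receptor, rose from 11.8 ± 1.06 to 325 ± 51.5 CPM (SD, n = 3; 4.79 ± 0.12, adjusted p = 1.04e-14). The Siglec genes Cd33 (1.47 ± 0.11) and Cd22 (1.70 ± 0.18) and the inhibitory receptor gene Cd200r1 (2.41 ± 0.18) rose, opposite to Siglece, whereas Mag, the Siglec gene of myelin, fell as Siglece did (-1.33 ± 0.39, adjusted p = 0.00696). Lectin genes of activated endothelium were among the decreases: Selp (-5.72 ± 0.10), Sele (-6.46 ± 0.12) and the oxidised lipoprotein receptor Olr1 (-5.45 ± 0.11). Endothelial genes of the list did not all fall: Cd93 rose (1.86 ± 0.09) and Thbd did not pass (-0.04 ± 0.06, adjusted p = 0.569). Cd47, the ligand of the inhibitory receptor SIRPα, fell (-2.27 ± 0.06), while Sirpa itself was higher by less than 2-fold (0.72).

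**Figure D5:**
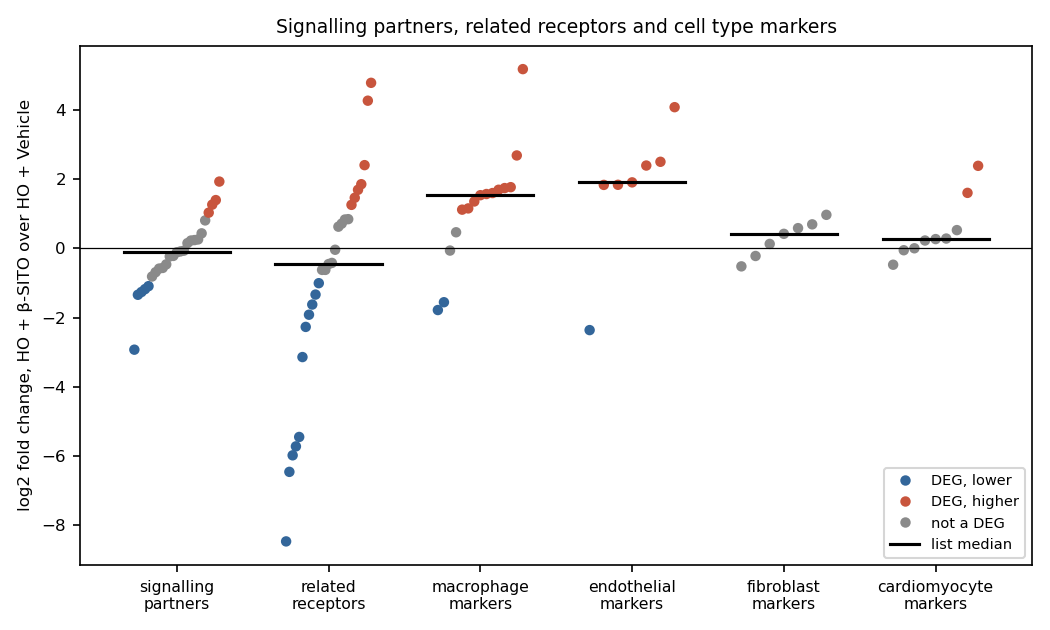
Log2 fold change of each tested gene of the signalling partner, related receptor and cell type marker lists, with the list median as a line. Macrophage and endothelial markers lie mostly above 0, with medians of 1.54 and 1.91, fibroblast and cardiomyocyte markers lie nearer to 0 (medians 0.42 and 0.27), and the receptor and partner lists spread to both sides.

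The labelled cell type was present, with all 9 cardiomyocyte markers tested (2 rose, none fell) and a summed level of 5706 to 6611 CPM in HO + Vehicle and 4875 to 7961 in HO + β-SITO. Fibroblast markers summed to more, 19610 to 20640 CPM in HO + Vehicle and 25980 to 26330 in HO + β-SITO. Col1a1 and Col1a2 made up 9100 and 6800 of the mean 20020 CPM in HO + Vehicle. In HO + β-SITO they made up 12200 and 10220 of 26200 CPM. Of the 7 fibroblast markers 0 were DEGs, where 22.8% of all tested genes were. Markers of macrophages were present too. Of 15, 11 rose (Csf1r by 1.54 ± 0.07 and C1qa by 1.70 ± 0.08 on the log2 scale). Cd14 and Timd4 fell and Adgre1 did not pass (-0.06 ± 0.07). The sum of the 15 went from between 1302 and 1418 CPM to between 2796 and 3402 CPM. Lyz2 alone made up 647 of the mean 1354 CPM in HO + Vehicle and 1408 of 3004 in HO + β-SITO. The summed level of the 53 receptor genes itself went from between 1487 and 1591 CPM to between 889 and 1029 CPM. Abundant genes weigh most in this sum, such as Ms4a4d (mean 305 against 15.4 CPM) and Clec2d (185 against 89.8 CPM). By the DEG count 16 genes were lower and 17 higher. By family the fall was largest for MS4A, with mean sums of 575 CPM in HO + Vehicle and 136 CPM in HO + β-SITO. Lectin, LILR and PIR, PILR and Siglec sums were lower too, and the Fc receptor sums overlapped. The lectin sum was lower although 8 of the 18 lectin genes were DEGs higher and 3 were DEGs lower. The CD300 (17.55 against 59.0 CPM) and TREM (10.1 against 57.1 CPM) mean sums rose.

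Of 13 monocyte and neutrophil markers only 3 were tested and all 3 fell (Plac8, Csf3r, Camp), with summed levels of 111 to 151 CPM against 19.7 to 23.3. Plac8 alone made up 109 of the mean 127 CPM in HO + Vehicle and 15.7 of 21.4 in HO + β-SITO. The defining genes of these cells were near the floor: Ly6g had no count in any library, and Elane and Cxcr2 had none in HO + Vehicle. Among the untested genes, mean Ccr2 was higher in HO + β-SITO (0.146 against 0.389 CPM) and mean Ly6c2 lower (0.167 against 0.0171 CPM). In the other lists, DEGs were 1 of 3 tested dendritic cell markers (Batf3, lower), 1 of 2 B cell markers (Pax5, lower) and 1 of 1 T and NK cell markers (Cd4, higher). Also DEGs were 3 of 3 mast cell and basophil markers (1 lower, 2 higher) and 3 of 4 platelet and megakaryocyte markers (higher). Among all tested genes 22.8% were DEGs, and calls on so few genes say little of a cell type. Cd3e and Fcer1a, which help define T cells and mast cells, had no count in any library. Other genes of the mast cell and basophil list were detected. Mean Mcpt4 rose from 5.62 to 23.6 CPM and Kit from 14.0 to 51.9 CPM, while Hdc fell from 20.1 to 0.157 CPM. T4 was the highest of the HO + β-SITO libraries for 37 of the 52 tested receptor genes and also held the highest macrophage sum (3402 against 2796 and 2814 CPM) and the lowest cardiomyocyte sum (4875 against 7873 and 7961 CPM). Without T4, 16 receptor genes were lower and 16 higher, Clec14a being the call lost.

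The 42 genes of the name rule that are not reported had at most 9 counts in any library, and 15 of them had none. They include 15 lectins, 13 MS4A genes, 4 CD300, 4 LILR and PIR, 3 Siglec and 3 TREM genes. Ms4a1, which encodes the B cell antigen CD20, had 4, 7 and 4 counts in V1 to V3 and none in T4 to T6. Siglecf, a marker of eosinophils and alveolar macrophages, had 2 to 7 counts in every library. At this depth nothing further can be said of these genes.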

How the data were processed

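RNA-seq of 6 libraries of hypoxic NMCMs was analysed, 3 per group, with groups taken from the sample titles. The authors deposited 1 table of raw counts per gene, without normalization. The submitters' processing notes name FastQC, HISAT2, featureCounts and GRCm39, and versions and strand setting are not given in the sources used here. Libraries held 16694734 to 18460522 counts, which limits precision for genes with few counts. Intervals cover counting error only.

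With R 4.3.3 and edgeR 4.0.16, genes were filtered with filterByExpr, normalised with TMM and compared with the quasi-likelihood test, with the group as the only term and Benjamini-Hochberg adjustment over 14799 genes. The study's DEG threshold (adjusted p under 0.05, more than 2-fold) was kept. Alternatives used DESeq2 1.42.0, limma 3.58.1 (voom), glmTreat, other normalizations, other filters, protein-coding genes only and the removal of each library. The code was tested on simulated data.

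Members, lists and promoter motifs were chosen with earlier results of these data known. Any reported receptor gene may be named. Values per library are given for 8 DEGs with the greatest rise, 8 with the greatest fall, the 6 genes highest in mean CPM, and Fcgr1, Fcgr2b, Fcgr3, Fcgr4, Fcer1g, Trem1, Trem2, Clec7a, Clec4e, Clec4n and Pirb. Signalling roles were assigned, and Clec4d, Ms4a1 and Siglecf added, after the values were seen. Protein sequence features that had been planned were not analysed here. Windows of 10 genes, among them Clec4n, Clec3b, Siglec1 and Ms4a6d, were not used here. Some genes of the lists are counted but not reported here by name.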

Additional observations from a re-analysis of the deposited data

How the results depend on the processing

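The counts of receptor DEGs stayed within 1.5 times the reported 33 under every alternative run, from 26 with glmTreat against 2-fold to 44 with no fold-change cutoff, and no receptor gene changed its direction. With each library left out in turn there were 32 to 34, with 16 lower each time and 16 to 18 higher. Of 832 comparisons of a single gene with its reported call, 802 kept it. The 16 lost calls concerned 7 genes, all with a log2 fold change between 1.03 and 1.27 in size: Cd300ld, Cd300ld3, Clec11a, Clec14a, Clec2d, Clec4a1 and Ms4a6b, each lost with glmTreat. Clec2d (-0.90), Clec4a1 (-0.98) and Ms4a6b (-0.95) were also lost with library size only, which shifts all genes by 0.15 on the log2 scale, and with upper quartile normalization (0.14). Clec11a was lost without T5 (0.99) and Clec14a without V3 (0.97) or T4 (0.99). Without the fold-change cutoff there were 9892 DEGs among all genes, 12 lower and 7 higher signalling partners and 11 higher related receptors. With glmTreat 2 signalling partners were higher. In the fits that left out 1 library, 3467 to 3610 genes were DEGs. No paired analysis was possible because the replicate numbers of the groups (1 to 3 and 4 to 6) are not shared. Depth limits statements on Trem1, Siglecg, Pira2 and the genes below 10 counts.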
